A study of Pan troglodytes with 217 samples.

Results

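CCKBR (ENSPTRG00000003283) and MRGPRX1 (ENSPTRG00000051611) are 2 of the 33729 gene identifiers counted in single cells of chimpanzee blastoids, the blastocyst-like structures that form from naive pluripotent stem cells. Both encode G protein-coupled receptors, and both were picked because in these same cells their reads were abundant in trophectoderm-like cells and scarce elsewhere. Their difference between classes is therefore what chose them, and every level below is a description without a test. The levels were taken in the cells with at least 8000 detected genes, which left out 24 of the sequenced cells and kept 60 and 51 trophectoderm-like, 50 epiblast-like and 32 hypoblast-like cells.

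CCKBR is the cholecystokinin B receptor, also called the gastrin receptor, which couples mainly through Gq to phospholipase C and calcium release. It is known from the stomach, where gastrin acts through it on acid secretion, and from the brain, where it binds cholecystokinin. MRGPRX1 belongs to the Mas-related receptors, whose X branch expanded in primates, and is known from sensory neurons as an itch receptor for peptides cut from proenkephalin. The trophectoderm is the outer epithelium of the blastocyst and the source of the placental trophoblast.

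Per the labels, naive chimpanzee iPSCs were held in N2B27 with PD032590, XAV939, Gö6983, human LIF, Activin-A, IL6 and the EZH2 inhibitor EPZ-6438. The study's methods also name a medium without Activin-A and IL6 and 2 ways of clustering the cells, and which of these applied to a cell is not given. Blastoids were then formed in inhibitors of MEK, TGF-beta receptors and ROCK with lysophosphatidic acid, next without the MEK inhibitor, and last in N2B27 alone. On day 4 the mural trophectoderm was removed by hand, inner cell masses with polar trophectoderm were taken apart separately, and each cell received its own SMART-seq2 library. The line, the blastoid, the batch and the mural or polar origin of a cell are not given, so all cells form 1 sample of 1 condition, cells are not replicates, and the classes and states below were rebuilt by clustering.

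Passing cells held between 1679888 and 25630392 reads on genes, with a median of 3960857. Clustering gave 2 trophectoderm-like clusters, which are called the CCR7-low state (60 cells) and the CCR7-high state (51 cells) after CCR7 (ENSPTRG00000009125), a chemokine receptor that was at 5.71 CPM in the first and 315 CPM in the second. The states overlap in it, since 12 of 60 CCR7-low cells were at 10 CPM or more and 3 of 51 CCR7-high cells held no CCR7 read. CPM are reads of a gene scaled to 1000000 reads on all genes, and a pooled CPM sums the reads over all cells of a group. All trophectoderm-like cells had at least 3 of 12 trophectoderm markers at 10 CPM or more, but so did 37 of the 50 epiblast-like cells and 27 of the 32 in the hypoblast-like cluster. The summed level of the 12 markers ran from 1211 to 11168 CPM in trophectoderm-like cells and from 0 to 2978 CPM in the other 82, so the classes overlap in it. In turn, 26 trophectoderm-like cells had at least 3 epiblast or hypoblast markers, 14 of them CCR7-low and 12 CCR7-high. Several of these markers were common in trophectoderm-like cells, with LAMA1 at 10 CPM or more in all of them and at a higher pooled level (319 CPM) than in hypoblast-like cells (166.7 CPM), and with DPPA2 in 100 and POU5F1 in 89 of them at 10 CPM or more. Intervals are exact 95% intervals, and they cover counting error only, since copies of 1 cDNA are counted more than once.

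CCKBR was read in every trophectoderm-like cell. Across these 60 and 51 cells its level ran from 2.33 CPM through a median of 513 CPM to 2454 CPM. Only 1 of them was under 10 CPM, and 94.6% were at 100 CPM or more. The pooled level was 590 CPM (588 to 592), which was at or above that of 98.02% of the 12780 named genes with a read in at least 20 cells. This rank is in reads and favours long transcripts, because no transcript lengths of the build used were at hand.

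Outside the trophectoderm-like clusters, CCKBR was low in most cells and high in a few. It was read in 26 of 50 epiblast-like cells (52%, 37.4% to 66.3%), where the level ran from 0 through a median of 0.195 CPM to 311 CPM. In hypoblast-like cells it was read in 17 of 32 (53.1%, 34.7% to 70.9%), with a median of 0.510 CPM and a highest value of 83.3 CPM. Of the epiblast-like cells 18 (36%) were at 10 CPM or more and 4 at 100 CPM or more, while 12 hypoblast-like cells (37.5%) reached 10 CPM. None of the hypoblast-like cells reached 100 CPM (0 of 32), and that count permits a share as high as 9.38%. The ranges overlap, since the highest epiblast-like cells lay above the lowest trophectoderm-like cells. The pooled level over both classes was 22.5 CPM (22.05 to 23.1), 26.2-fold under that of trophectoderm-like cells. The epiblast-like level of 29.4 CPM owed 26.9% of its reads to 1 cell, and without it the level was 22.4 CPM.

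MRGPRX1 was read in all but 10 trophectoderm-like cells (90.99%, 84.1% to 95.6%) and varied far more among them than CCKBR did. Its level ran from 0 through a median of 160 CPM to 3058 CPM, with the middle 50% of cells between 15.9 and 491 CPM. For CCKBR the middle 50% of cells lay between 329 and 707 CPM. Of these cells, 89 (80.2%, 71.5% to 87.1%) were at 10 CPM or more in MRGPRX1 and 61 (54.95%) at 100 CPM or more. The pooled level was 383 CPM (381 to 384).

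In epiblast-like cells MRGPRX1 was read in 17 of 50 (34%, 21.2% to 48.8%), with a median of 0 CPM and a highest value of 132.1 CPM. In hypoblast-like cells it was read in 16 of 32 (50%, 31.9% to 68.1%), with a median of 0.147 CPM and a highest value of 61.3 CPM. It reached 10 CPM in 8 epiblast-like (16%) and 12 hypoblast-like cells (37.5%), so most cells of both classes stayed under that level. The pooled level was 5.86 CPM (5.54 to 6.19) in epiblast-like and 8.30 CPM (7.81 to 8.81) in hypoblast-like cells. Over both classes it was 6.77 CPM, 56.5-fold under trophectoderm-like cells.

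**Figure D1:**
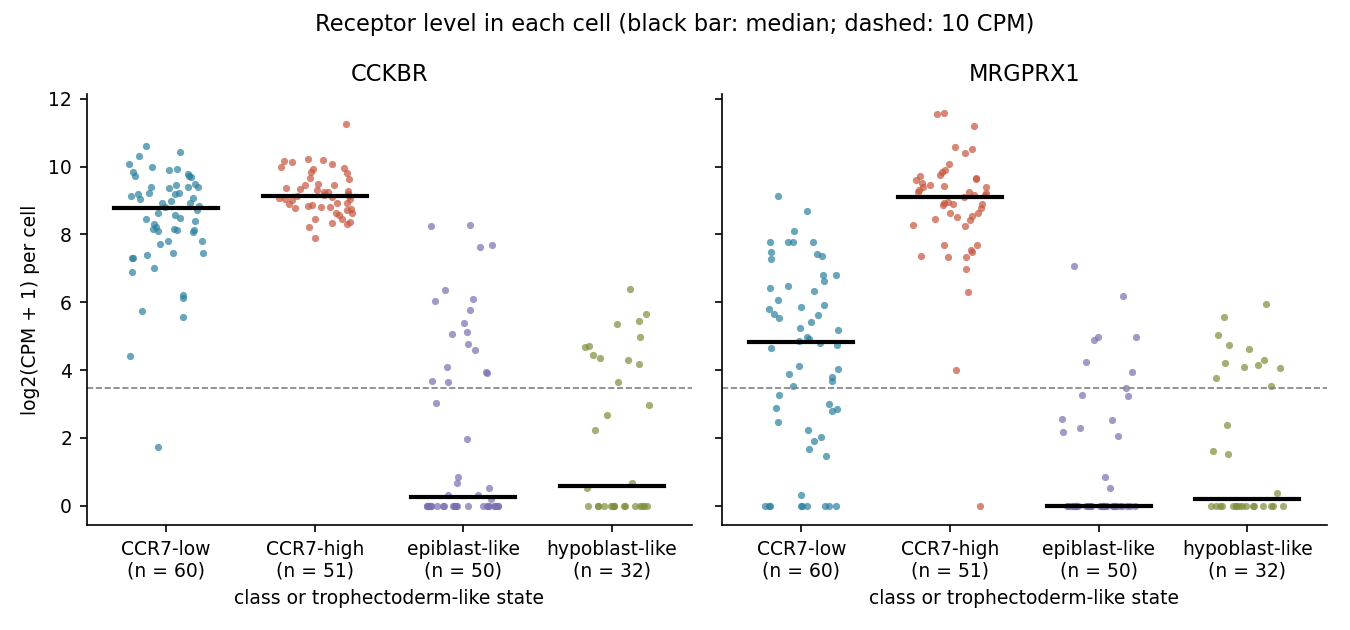
Each point is 1 cell, with CCKBR at the left and MRGPRX1 at the right as log2(CPM + 1) on the vertical axis, and cells grouped along the horizontal axis by trophectoderm-like state or by class. Black bars are medians and the dashed line marks 10 CPM: CCKBR lies high in both states, MRGPRX1 lies at 10 CPM or more in 50 of 51 CCR7-high cells and is spread from 0 to 558 CPM in the CCR7-low state.

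Median depth was close in the classes. It was 3960857 reads in trophectoderm-like, 3951119 in epiblast-like and 3978822 in hypoblast-like cells. With every cell thinned to 2532312 reads, which left out 20 shallower cells, CCKBR was read in 100 of 100 trophectoderm-like cells, in 24 of the 48 epiblast-like cells and in 13 of the 25 hypoblast-like cells kept. MRGPRX1 was then read in 92 of 100, 17 of 48 and 10 of 25 cells. Within trophectoderm-like cells the correlation of log2(CPM + 1) with log2 reads per cell was 0.04 for CCKBR and 0.12 for MRGPRX1 (Pearson's r across cells). The values differed in sign between the states, at -0.14 in CCR7-low and 0.36 in CCR7-high cells for CCKBR and at -0.10 and 0.24 for MRGPRX1.

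Trophectoderm markers were read in most cells of other classes that held the receptors, and in many that did not. Of the 18 epiblast-like cells at 10 CPM or more in CCKBR, 16 had at least 3 trophectoderm markers, and their median level of GATA3, a trophectoderm transcription factor, was 120.6 CPM. In the 32 epiblast-like cells under 10 CPM, 21 had 3 such markers and the median of GATA3 was 0.441 CPM. Among hypoblast-like cells, 11 of 12 at 10 CPM or more in CCKBR had 3 trophectoderm markers, with a GATA3 median of 66.7 CPM, against 16 of 20 and 17.9 CPM in those under it. All 8 epiblast-like and all 12 hypoblast-like cells at 10 CPM or more in MRGPRX1 had at least 3 of these markers, and under 10 CPM so did 29 of the 42 epiblast-like cells (69%) and 15 of the 20 hypoblast-like cells (75%). Over the 50 epiblast-like cells CCKBR and GATA3 had a Pearson's r of 0.83 on log2(CPM + 1). It was 0.48 over the 32 hypoblast-like cells and 0.11 over all trophectoderm-like cells. For MRGPRX1 and GATA3 the values were 0.73, 0.43 and 0.12.

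Only 18 of the 82 other cells had fewer than 3 trophectoderm markers. In these, CCKBR was read in 5 and reached 10 CPM in 3, with a highest value of 23.1 CPM and a pooled level of 2.91 CPM. MRGPRX1 was read in 3, and 0 of 18 were at 10 CPM, a count that permits up to 16.7%. Its highest value was 4.75 CPM and the pooled level 0.567 CPM. Against these 18 cells alone the pooled folds were 202.5 for CCKBR and 676 for MRGPRX1. The part of mixed cells or carried-over RNA in the levels outside the trophectoderm-like clusters was not tested.

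The 2 receptors differed in how they followed the CCR7 states. CCKBR ran from 2.33 through a median of 435 CPM to 1546 CPM in the 60 CCR7-low cells, and from 237.6 through 562 CPM to 2454 CPM in the 51 CCR7-high cells. The ranges overlap over most of their length, and the states differ mainly in that CCR7-low cells reach further down. At 10 CPM or more were 59 of 60 CCR7-low cells (98.3%, 91.1% to 99.96%) and 51 of 51 CCR7-high cells (93.02% to 100%). The pooled CPM was 472 (470 to 475) and 714 (711 to 718), a ratio of 1.51. Of 7224 genes at 10 CPM or more in trophectoderm-like cells, 89.6% were likewise within 2-fold between the states, and their median was 0.06 on the log2 scale. A single CCR7-high cell carried 15.1% of that state's CCKBR reads, and without it the level there was 635 CPM.

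MRGPRX1 ran from 0 through a median of 27.5 CPM to 558 CPM in CCR7-low cells, and from 0 through 549 CPM to 3058 CPM in CCR7-high cells. It was read in 51 of 60 CCR7-low and 50 of 51 CCR7-high cells, so the states differed more in level than in detection. At 10 CPM or more were 39 of 60 CCR7-low cells (65%, 51.6% to 76.9%) and 50 of 51 CCR7-high cells (98.04%, 89.6% to 99.95%). At 100 CPM or more were 13 (21.7%) and 48 (94.1%). The ranges overlap, since 1 CCR7-low cell, at 558 CPM, exceeded the median of CCR7-high cells and 1 CCR7-high cell held no read, while the next highest CCR7-low cell was at 414 CPM. The pooled CPM was 61.8 (60.9 to 62.8) and 723 (720 to 726), a ratio of 11.7. Of the 7224 genes, 1.55% were at least 5-fold higher in CCR7-high cells, and 55, MRGPRX1 among them, had a CCR7-high over CCR7-low ratio at least that of MRGPRX1. The clusters were built with these genes, so this too describes the clusters. With CCKBR, MRGPRX1 and CCR7 left out of the clustering, 61 and 50 cells fell into the states and the ratios were 1.54 and 11.6.

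The border between the states was not firm. Of 20 other random seeds of the clustering, 10 returned the same 60 and 51 cells and 10 returned 72 and 39, with the same 12 cells changing sides. These 12 cells lay between the states in MRGPRX1, with a median of 174.1 CPM and a range from 0 to 708 CPM, against 27.5 CPM in the 60 cells that were always CCR7-low and 603 CPM (158.98 to 3058) in the 39 that were always CCR7-high. In CCKBR the medians of the 3 sets were 506, 435 and 566 CPM. With 72 and 39 cells, the ratio of CCR7-high to CCR7-low was 8.13 for MRGPRX1 and 1.47 for CCKBR. The other classes were the same in all 20.

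Taken along CCR7 itself, the contrast was similar. In the 44 trophectoderm-like cells without a CCR7 read, median MRGPRX1 was 27.9 CPM, with a range from 0 to 441 CPM. In the 7 cells with a read but under 10 CPM of CCR7 it was 25.8 CPM (0 to 169.2), and the ranges of these sets overlap. In the 20 cells at 10 to under 100 CPM of CCR7 it was 144.2 CPM (0 to 708). In the 40 cells at 100 CPM or more it was 604 CPM, and the lowest of these cells held 78.1 CPM. CCKBR had medians of 390, 661, 553 and 548 CPM in the same 4 sets. Cells near these limits were few at 10 CPM (7 between 5 and 20 CPM) and more at 100 CPM (20 between 50 and 200 CPM), and with states cut at 100 CPM of CCR7 the pooled MRGPRX1 ratio was 7.72.

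**Figure D2:**
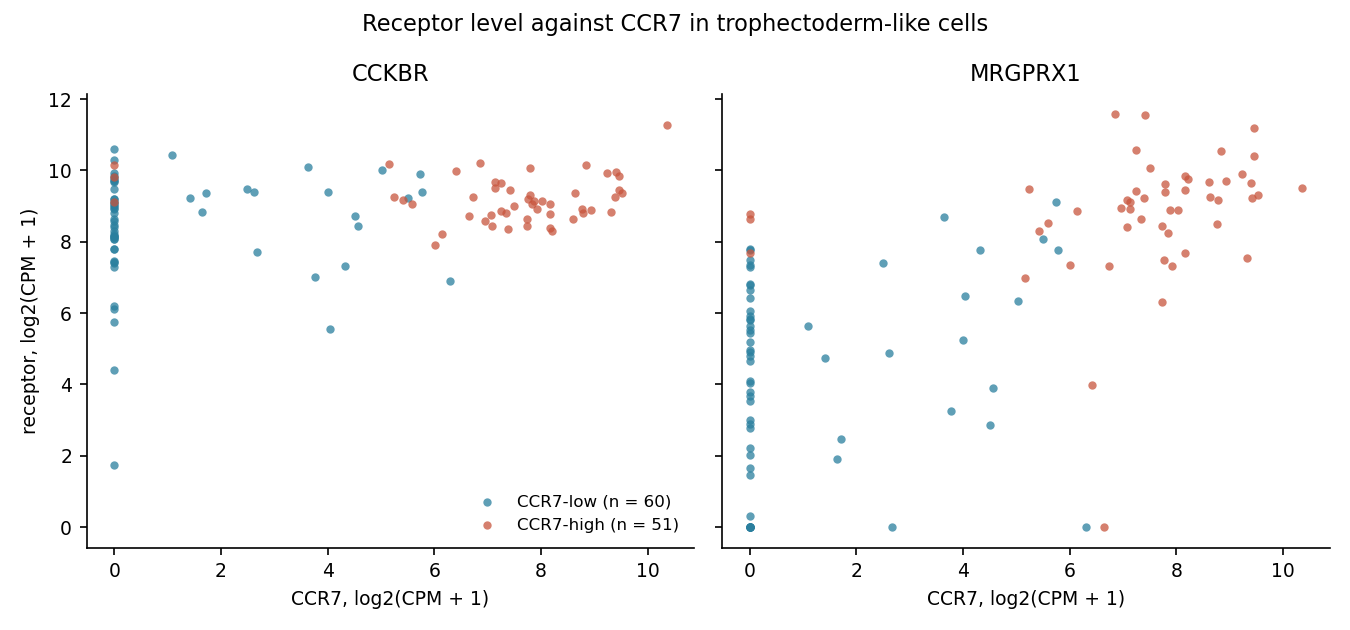
Each point is 1 trophectoderm-like cell, with CCR7 on the horizontal axis and CCKBR (left) or MRGPRX1 (right) on the vertical axis, all as log2(CPM + 1), and colour for the state. CCKBR reaches lower in cells without a CCR7 read (from 2.33 CPM) than in cells at 100 CPM or more of CCR7 (from 315 CPM), and every cell at 100 CPM or more of CCR7 holds at least 78.1 CPM of MRGPRX1.

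Some markers of the trophectoderm-like cells split between the states, in both directions. Of the 12 trophectoderm markers, 11 reached 10 CPM in trophectoderm-like cells. Among these, 4 (GATA2, VGLL1, PGF and CYP19A1) were at least 2-fold higher in CCR7-high cells and 2 (CDX2 and DAB2) at least 2-fold lower. The shares over the 7224 genes were 6.02% and 4.35%. GATA3 and KRT19 were among the markers within 2-fold. CDX2, an early trophectoderm transcription factor, was at 24.8 CPM in CCR7-low and 1.62 CPM in CCR7-high cells. Among CCR7-low cells, the 39 with CDX2 at 10 CPM or more had a median MRGPRX1 level of 16.3 CPM and the 21 others one of 45.3 CPM, with ranges of 0 to 220 and 0 to 558 CPM that overlap. CGA, the hormone alpha subunit made by syncytiotrophoblast, was at 18.5 CPM in CCR7-low and 858 CPM in CCR7-high cells. A few cells carried the latter level, since its median over CCR7-high cells was 23.7 CPM, 16 of 51 held no read and the highest was at 13971 CPM. Among CCR7-high cells, the 27 with CGA at 10 CPM or more had a median MRGPRX1 level of 695 CPM (78.1 to 3058), and the other 24 one of 382 CPM (0 to 839). CCKBR medians in these 2 sets were 634 and 548 CPM. All 4 matched syncytiotrophoblast markers summed to 21.97 CPM in CCR7-low and 967 CPM in CCR7-high cells, most of it CGA, and 0 of the 4 were without a read. Median depth was also higher in CCR7-high cells, 4516217 against 3693058 reads, and the part of these differences in the receptor levels was not tested.

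Within a cell, MRGPRX1 was not seen at 10 CPM without CCKBR in the trophectoderm-like clusters. Both were at 10 CPM or more in 89 trophectoderm-like cells (80.2%), CCKBR alone in 21, MRGPRX1 alone in 0 and neither in 1. A count of 0 allows MRGPRX1 alone in up to 2.703% of these cells, and CCKBR was under 10 CPM in only 1 of them. Of the 21 cells with CCKBR alone, 20 were CCR7-low. At 100 CPM both were present in 61 cells, 13 CCR7-low and 48 CCR7-high, and CCKBR alone in 44. In epiblast-like cells both were at 10 CPM in 8, CCKBR alone in 10 and MRGPRX1 alone in 0. In hypoblast-like cells both were at 10 CPM in 9, and each was alone in 3.

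On log2(CPM + 1), Pearson's r between the receptors was 0.77 over all passing cells, where both separate the classes. It was 0.56 over the trophectoderm-like cells, 0.60 over the 60 CCR7-low cells and 0.20 over the 51 CCR7-high cells. MRGPRX1 and CCR7 had an r of 0.66 over trophectoderm-like cells, 0.23 within CCR7-low and 0.22 within CCR7-high cells. The receptors share library, depth and class in each cell, and cells are not independent samples.

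**Figure D3:**
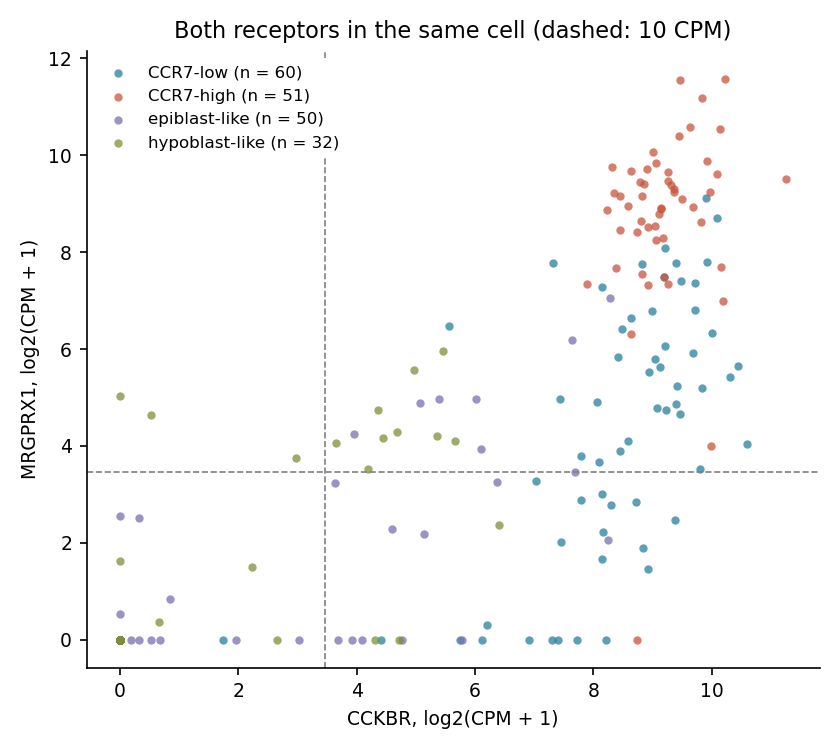
Each point is 1 passing cell, with CCKBR on the horizontal and MRGPRX1 on the vertical axis as log2(CPM + 1), colour for class or state and dashed lines at 10 CPM. No trophectoderm-like cell lies in the upper left field (MRGPRX1 at 10 CPM without CCKBR), and 21 lie in the lower right field (CCKBR without MRGPRX1).

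The genes most like each receptor were ranked by the same r among the other 12779 named genes with a read in at least 20 cells. Over all passing cells, CCKBR was most like PTN, a secreted heparin-binding growth factor (r = 0.87). Next came GATA3 (0.87), the nuclear receptor NR2F2 (0.87), the amino acid transporter SLC38A1 (0.86) and the epithelial GTPase RAB17 (0.86), and MRGPRX1 was at rank 28. Over trophectoderm-like cells alone, PTN led again (0.61), followed by MME (0.56), a membrane peptidase also called neprilysin, MRGPRX1 (0.56), the adhesion molecule NECTIN1 (0.54) and the transporter SLC7A6 (0.53). MME was at 120 CPM in trophectoderm-like and 22.1 CPM in other cells.

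MRGPRX1 was most like VGLL1, a TEAD cofactor of trophoblast (0.85), over all cells. GRAMD2A (0.82), HSD3B1 (0.81), the splicing regulator MBNL2 (0.81) and the adaptor FYB1 (0.80) followed, and CCKBR was at rank 11. Over trophectoderm-like cells the first 3 were PTN (0.77), HSD3B1 (0.76) and VGLL1 (0.71), and CCKBR was at rank 86. HSD3B1, an enzyme of placental progesterone synthesis, was at 12.5 CPM in CCR7-low and 295 CPM in CCR7-high cells, the same direction as MRGPRX1. PTN was at 573 and 1614 CPM.

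CCKBR and MRGPRX1 together took 50.6% of the trophectoderm-like reads on the listed G protein-coupled receptors. They were chosen for being abundant in these cells, so the shares and places below restate that choice. From a list of 356 such genes, 333 matched a symbol and 16 reached 10 CPM in trophectoderm-like cells. CCKBR took 30.7% and MRGPRX1 19.9% of all reads on the list in trophectoderm-like cells, the first and second place. In the other cells they took 1.61% and 0.485%, at places 13 and 30. In CCR7-low cells CCKBR alone took 34.8% and MRGPRX1 4.55%, at place 6. In CCR7-high cells their shares were 28.3% and 28.7%, and together they took 57.01%. These are shares of reads and are not corrected for transcript length.

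At 10 CPM or more and at least 10-fold higher in trophectoderm-like than in other cells were 4 receptors, CCR7 (58.6-fold), MRGPRX1, CCKBR and the adhesion receptor ADGRG1 (14.6-fold). They are 3.85% of the listed receptors read in at least 20 cells, against 0.696% of the 12780 genes. Since both members were chosen on this contrast, nothing is read from the comparison. The next by fold were the endothelin receptor EDNRB (70.6 against 12.2 CPM, 5.81-fold) and the adhesion receptor ADGRG6 (35.1 against 6.85 CPM, 5.13-fold). After them came the latrophilin ADGRL3 (4.05-fold), the opsin OPN3 (3.21-fold), the Wnt receptor FZD3 (1.18-fold) and the latrophilin ADGRL2 (1.12-fold). Over the 27 receptors at 10 CPM or more in either class, 8 were at least 2-fold higher and 13 at least 2-fold lower in trophectoderm-like cells, and their median was -0.82 on the log2 scale. Over 8104 genes at that level, 8.88% were higher, 15% lower and the median was -0.05.

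Among the 16 receptors at 10 CPM in trophectoderm-like cells, 3 were at least 5-fold higher in CCR7-high cells (1.55% of the 7224 genes). They were MRGPRX1, CCR7 and ADGRG1. CCR7 names the states, so its place in these counts was fixed in advance. ADGRG1 was at 1.97 CPM in CCR7-low and 75.99 CPM in CCR7-high cells. In all, 4 of the 16 were at least 2-fold higher and 5 at least 2-fold lower in CCR7-high cells (6.02% and 4.35% of the 7224 genes). On the other side, GPRC5A was at 82.4 CPM in CCR7-low and 3.59 CPM in CCR7-high cells, further apart than MRGPRX1, and ADGRG6 at 54.4 and 14.7 CPM. CCKBR and EDNRB, at 1.51 and 1.65 times the CCR7-low level, were among the 7 within 2-fold.

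**Figure D4:**
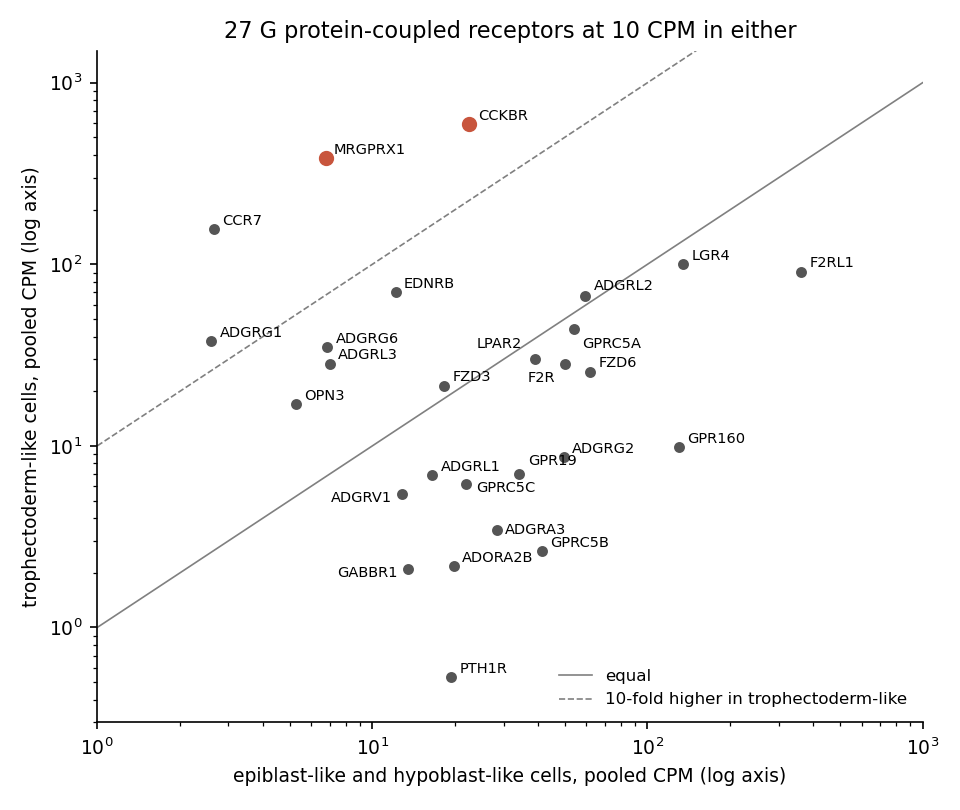
Each point is 1 of the 27 receptors at 10 CPM or more in either class, with the pooled CPM of the other 82 cells (both remaining classes) on the horizontal and of trophectoderm-like cells on the vertical axis, both logarithmic. The solid line marks equal levels and the dashed line a 10-fold higher level in trophectoderm-like cells, above which lie CCKBR and MRGPRX1 (red), CCR7 and ADGRG1.

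The relatives of both receptors were far below them. CCKAR, the only other cholecystokinin receptor, had 6 reads, all in 1 CCR7-low cell. Of the 10 listed Mas-related receptors 9 matched a symbol, and MRGPRX1 was the only one with a pooled level of 10 CPM in trophectoderm-like cells. MRGPRX2, the mast cell receptor of the same branch, was at 2.90 CPM (2.76 to 3.05) there, with 1490 reads in 30 of 51 CCR7-high cells and 9 reads in 4 of 60 CCR7-low cells. In CCR7-high cells its pooled level was 5.94 CPM, 12 of 51 (23.5%) were at 10 CPM or more, and the highest was at 35.8 CPM. All 34 trophectoderm-like cells with an MRGPRX2 read were at 10 CPM or more in MRGPRX1, as were 80.2% of trophectoderm-like cells in all. MRGPRX3 was read in 30 trophectoderm-like cells, 26 of them CCR7-high, but with 54 reads in all, and MRGPRX4 in 5. MRGPRD, MRGPRF and MAS1 were read in 2, 4 and 1 trophectoderm-like cells and in 3, 8 and 5 cells of all classes, and MRGPRF and MAS1 were at 0.395 and 0.386 CPM in epiblast-like cells. MRGPRE and MRGPRG had 0 reads in any class, which allows 3 reads. The X receptors are close paralogs, and how many reads they lost to the limit to uniquely mapped reads, or whether MRGPRX1 reads were assigned to MRGPRX2 or MRGPRX3 was not tested.

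Transcripts of the ligand precursors were scarce. CCK, the precursor of cholecystokinin, had 1 read in all passing cells, in a CCR7-high cell. GAST, the precursor of gastrin, was at 12.98 CPM in trophectoderm-like and 2.64 CPM in other cells, but 1 cell at 449 CPM held 44.2% of the trophectoderm-like reads and without it the level was 7.34 CPM. GAST was read in 40 trophectoderm-like cells with a median of 0 CPM, and it reached 10 CPM in 11. By state GAST was at 6.38 CPM in CCR7-low and 19.98 CPM in CCR7-high cells, and without the highest cell of each at 2.57 and 8.38 CPM. In hypoblast-like cells 8 of 32 reached 10 CPM of GAST, 6 of them together with CCKBR, which 12 of the 32 cells (37.5%) reached. CCKBR was also reached in all 11 trophectoderm-like and the 2 epiblast-like cells at 10 CPM of GAST. Of all cells of these 2 classes, 99.1% and 36% reached 10 CPM of CCKBR. PENK, the precursor of proenkephalin peptides, was at 1.91 CPM in trophectoderm-like and 0.797 CPM in other cells, and 8 trophectoderm-like cells reached 10 CPM. Of 7 enzymes that process such precursors, FURIN was at 70.4 and the tyrosine sulfotransferase TPST2 at 52.4 CPM in trophectoderm-like cells, against 27.5 and 197.7 CPM in the others. FURIN was at 39.8 CPM in CCR7-low and 102.8 CPM in CCR7-high cells. PCSK1, CPE, PCSK2 and PAM, the enzymes of neuroendocrine peptide maturation, were at 1.19, 0.261, 0.0891 and 0.0639 CPM.

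Among the 13 G alpha subunits, 7 reached 10 CPM in either class. For this and the lists below, 8104 of the 12780 named genes read in at least 20 cells did so. Of the 7, 2 were at least 2-fold higher and 2 lower in trophectoderm-like cells, with a median of -0.42 on the log2 scale. Over the 8104 genes, 8.88% were higher, 15% lower and the median was -0.05. GNAS, of the Gs type, and GNAI3, of the Gi type, had the most reads in trophectoderm-like cells, at 509 and 234 CPM. GNA12 (4.04-fold) and GNAI1 (3.36-fold) were higher there, and both were much higher in CCR7-high cells, at 215.5 against 14.4 CPM and 144.2 against 8.61 CPM. GNA13 (67.6 against 208.2 CPM) and GNAI2 (59.2 against 216.2 CPM) were lower. Of the Gq type, through which CCKBR is known to signal, GNA11 was at 15.5 CPM in trophectoderm-like and 21.4 CPM in other cells, GNAQ at 1.92 and 1.77 CPM, and GNA14 and GNA15 under 0.1 CPM in trophectoderm-like cells.

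Downstream of Gq, 2 of 7 genes of phospholipase C beta and calcium release reached 10 CPM in either class, 0 at least 2-fold higher and 1 lower in trophectoderm-like cells (8.88% and 15% of the 8104 genes), with a median of -1.19 on the log2 scale. The 2 with the most reads in trophectoderm-like cells were PLCB1 at 8.38 CPM and the inositol trisphosphate receptor ITPR3 at 7.78 CPM, of which ITPR3 was at 33.2 CPM in other cells. Of 10 genes of protein kinase C and the related protein kinase D, 3 reached 10 CPM in either class, 1 at least 2-fold higher and 1 lower (8.88% and 15% of the 8104 genes). PRKCH was at 33.8 CPM in trophectoderm-like and 1.86 CPM in other cells (18.1-fold), with 3.08 CPM in CCR7-low and 66.3 CPM in CCR7-high cells, the direction of MRGPRX1. PRKCD was at 25.1 and 49.9 CPM, and PRKD3, a protein kinase D, was lower (14.4 against 31.6 CPM).

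Of 7 receptor kinases and arrestins, which switch receptors off, 4 reached 10 CPM and 2 were at least 2-fold higher in trophectoderm-like cells, with a median of 0.93 on the log2 scale, beside 8.88% of the 8104 genes and their median of -0.05. GRK3 was at 25.5 against 6.57 CPM (7.42 CPM in CCR7-low and 44.6 CPM in CCR7-high cells) and the arrestin ARRB1 at 15.7 against 4.96 CPM. GRK2 and GRK6, the 2 with the most reads, were at 35.99 and 30.8 CPM and within 2-fold of other cells. Of 21 RGS genes, whose products speed up GTP hydrolysis on G alpha subunits, 5 reached 10 CPM in either class, 2 at least 2-fold higher and 2 lower in trophectoderm-like cells (8.88% and 15% of the 8104 genes), with a median of -0.87 on the log2 scale. RGS16 was at 120.8 against 31.99 CPM and RGS13 at 68.6 against 11.9 CPM. RGS13 ran opposite to MRGPRX1 between the states, at 123.4 CPM in CCR7-low and 10.5 CPM in CCR7-high cells. RGS2 (7.14 against 17.8 CPM) and RGS10 (13.1 against 60.3 CPM) were lower in trophectoderm-like cells.

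**Figure D5:**
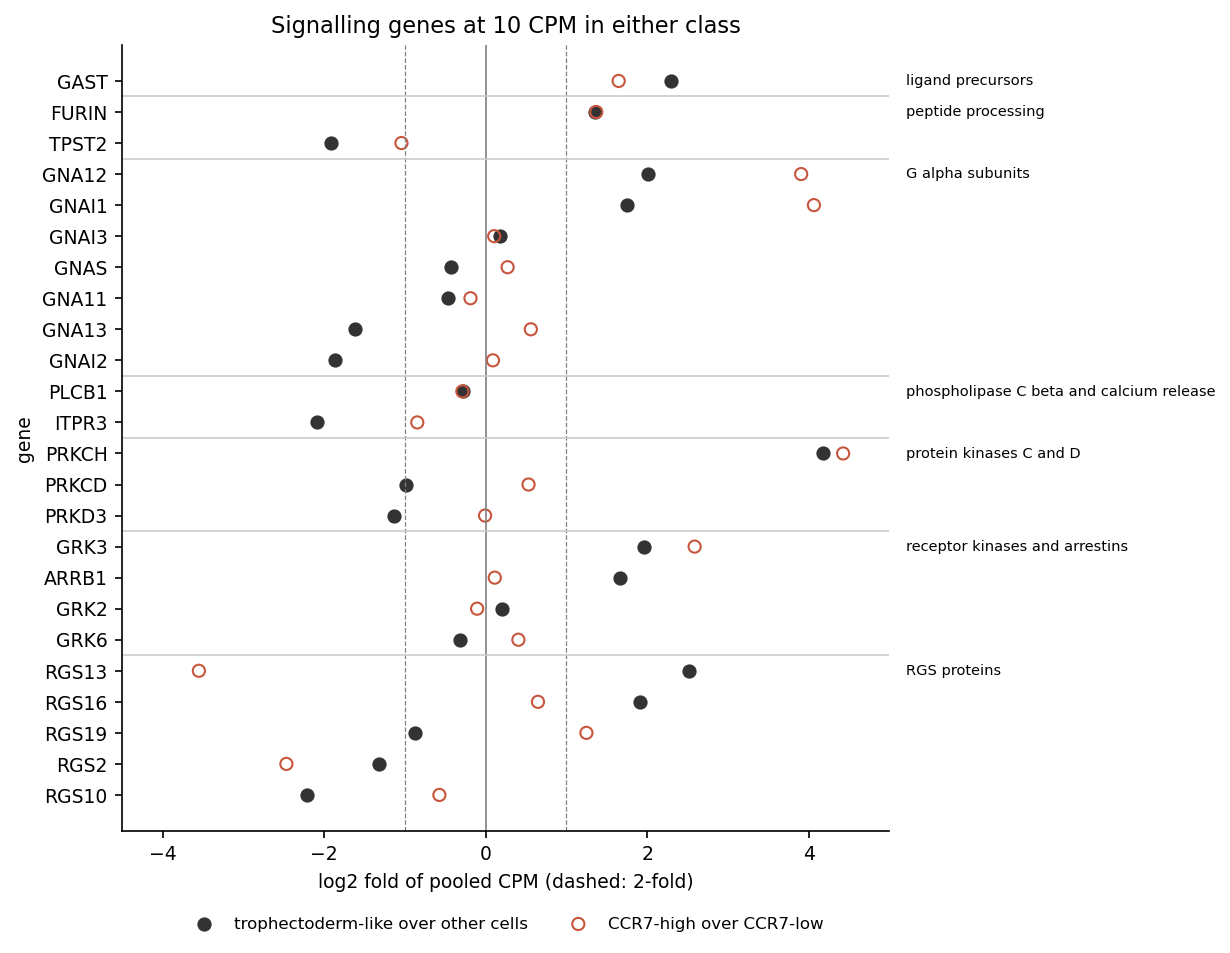
Each row is a gene of the ligand and signalling lists at 10 CPM or more in either class, with the log2 fold of pooled CPM on the horizontal axis, filled for trophectoderm-like over other cells and open for CCR7-high over CCR7-low cells; dashed lines mark 2-fold. PRKCH, GNA12, GNAI1, GRK3, GAST and FURIN lie beyond 2-fold to the right in both, TPST2 and RGS2 beyond it to the left in both, and RGS13 lies right in the first and left in the second.

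Markers of sensory neurons, mast cells and gastric endocrine and parietal cells, in which these receptors or MRGPRX2 are known, were low in trophectoderm-like cells, and no list of brain neurons was examined. Of 10 sensory neuron markers 0 reached 1 CPM there, with PRPH highest at 0.796 CPM and P2RX3 without a read. Of 7 matched mast cell markers only KIT passed 1 CPM (1.20 CPM), and of 7 matched gastric endocrine and parietal cell markers only SLC18A2 did (1.26 CPM). The proton pump genes ATP4A and ATP4B were at 0.0639 and 0.0852 CPM. The share of all genes at 1 CPM was not computed. At 10 CPM in trophectoderm-like cells were 0 markers of each list, against 7224 of the 12780 named genes. Those genes had a read in at least 20 cells, a limit not set for the markers.

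The genes beside the receptors on the chromosome, in the order of RefSeq's annotation of another chimpanzee assembly, had few reads. CCKBR lies between CNGA4 (4.30 CPM in trophectoderm-like and 0.864 CPM in other cells) and CAVIN3 (5.08 and 14.5 CPM). MRGPRX1 lies between PTPN5 (1.32 and 0.477 CPM) and MRGPRX2. Over all passing cells the r of CCKBR was 0.30 with CNGA4 and -0.22 with CAVIN3, and that of MRGPRX1 was 0.22 with PTPN5 and 0.58 with MRGPRX2. Over trophectoderm-like cells alone these values were 0.33, 0.14, 0.37 and 0.57, so the sign for CAVIN3 differed.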

How the data were processed

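Read counts per Ensembl gene were used for 217 single cells, in 33729 identifiers. The authors deposited these counts without normalization. Per the paper's methods, reads were trimmed with FastP, aligned with STAR to the chimpanzee genome Pan_tro_3.0 and counted on Ensembl 109 with the gene counting built into STAR, which takes uniquely mapped reads only, while the submitters' processing notes name Trim Galore 0.6.6, STAR 2.7.7a and a human build. Symbols matched 18783 identifiers. Cells with under 4000 reads or 8000 detected genes were left out, and 193 remained, more than the study's methods state for the same limits. Scanpy 1.11.5 normalized the rest, and Leiden clustering (leidenalg 0.10.2) used 50 components, 30 neighbours, a resolution of 1 and seed 0. Clusters were named from fixed markers, and states from pooled CCR7. Doublets were not called or removed, and 0 pairs of cells had identical counts. Pooled CPM have exact Poisson and shares exact Clopper-Pearson 95% intervals, and a count of 0 is given the limit of 3 counts. With 1 sample no test was computed. Correlations used log2(CPM + 1). The scripts were tested on simulated data. The members, lists and most settings were chosen with earlier results of these data known. Genes were named by a written rule: the members and CCR7, all genes of the ligand and receptor family lists, in each signalling list the 2 genes with the most reads in trophectoderm-like cells and those at 10 CPM with a 2-fold difference, the 10 receptors of largest fold, the 5 most correlated genes, neighbours and class markers. The list of genes most like MRGPRX1 over trophectoderm-like cells is given for its first 3 genes, and the rest of it is not reported here. Low members of the enzyme, Gq and marker lists and receptors by state were named after their values were seen. Alternatives covered the cell filter, clustering, scaling, CPM level, state definition and summary over cells. Another seed and another set of comparison cells were added after seeing the data.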

Additional observations from a re-analysis of the deposited data

Results flagged for a closer look

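The 24 cells left out by the filter on reads and genes enter no comparison, and both receptors were read in some of them. CCKBR had a read in 16 of the 24 (66.7%, 44.7% to 84.4%), and 15 were at 10 CPM or more. MRGPRX1 had a read in 10 (41.7%, 22.1% to 63.4%), and 8 were at 10 CPM or more. Of the 19 left-out cells with at least 3 trophectoderm markers, 13 reached 10 CPM in CCKBR and 8 in MRGPRX1, against 2 and 0 of the 5 with fewer markers. These cells held between 5792 and 3863814 reads and were not assigned to a class.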

How the results depend on the processing

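Among the values recomputed for 12 results, 120 stayed within the interval or within 1.5 times the reported value, 21 moved and 0 changed direction. The share of CCR7-high cells at 10 CPM of MRGPRX1 was 100% with a minimum of 7000 or 9000 genes, 15 neighbours, 2000 variable genes, another seed, states cut at 100 CPM of CCR7, or without trophectoderm-like cells that had 3 epiblast or hypoblast markers. Counting 10 CPM in place of 1 read left MRGPRX1 in 80.2% of trophectoderm-like cells. At 1 CPM, 100% of CCR7-low cells held CCKBR, 83.3% MRGPRX1, and 90.1% of trophectoderm-like cells both; at 100 CPM these were 90%, 21.7% and 54.95%. States cut at 100 CPM of CCR7 gave a MRGPRX1 ratio of 7.72 between states. With the median CPM of single cells it was 20.0, and the CCKBR ratio between classes was 2052, since the median of other cells was near 0; MRGPRX1 gave none, its median there being 0. Without other cells that had 3 trophectoderm markers, an alternative added after seeing the data, the ratios between classes were 202.5 and 676 and 7 receptors passed. A level of 1 CPM let 11 receptors pass in place of 4. The cause of the other moves was not tested. No paired analysis was possible because all cells are 1 sample, and no replicate could be left out. At 1679888 reads, the lowest depth kept, 1 CPM is less than 2 reads.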
